A study of Mus musculus with 6 samples.

Results

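The 10 genes described here encode ATP-dependent chromatin remodelers of mouse embryonic stem cells (mESCs), namely *Smarca4*, *Smarcc1*, *Smarcd1*, *Smarcb1*, *Arid1a*, *Chd1*, *Chd4*, *Ino80*, *Ep400* and *Smarcad1*. They were chosen by name from 21938 protein-coding genes. H3K56ac peaks were collected in each gene body and up to 20 kb either side, which gave 27 of the 11106 peaks in the set. The mark, acetylation of histone H3 at lysine 56 (H3K56ac), was mapped with ChIP-seq in undifferentiated mESCs of the V6.5 line kept on feeder cells. All cells had been infected with lentivirus, which carried scramble shRNA (Scramble) or *Sirt6* shRNA (Sirt6KD), and *Sirt6* is the gene of a deacetylase that acts on this residue. Each of the 2 conditions had 2 H3K56ac libraries and 1 input library.

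The deposited table held 1 merged list of peak positions on mm10, without a read count, a height or a library of origin. The study asked how *Sirt6* knockdown alters H3K56ac, but Scramble and Sirt6KD cells cannot be told apart in these positions, and the *Sirt6* knockdown itself could not be checked. The values below therefore describe positions and widths of merged peaks, have no replicates, and carry no test. A peak may come from the Sirt6KD libraries alone. A region without a peak lacked a call in the merged set, which does not show that the mark was absent there. A peak base lay within 1 kb of a transcription start site (TSS) for 10 of 10 pluripotency genes (*Pou5f1*, *Nanog*, *Sox2* and others) and for 0 of 12 fibroblast genes that feeder cells could add, which allows up to 25% of such genes to have one and sets no limit on the number of feeder cells. A CpG-rich start, defined below, was present at 6 of these pluripotency genes and 1 of these fibroblast genes, and 13.6% of all genes without such a start had a promoter peak. The part of CpG content in these marker counts was not tested.

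ATP-dependent remodelers use the energy of ATP hydrolysis to slide, evict or exchange nucleosomes. In embryonic stem cells a form of the BAF complex (esBAF) with BRG1 (*Smarca4*), BAF155 (*Smarcc1*), BAF60A (*Smarcd1*) and BAF250A (*Arid1a*) supports self-renewal, CHD1 keeps chromatin open, and CHD4 is the motor of the NuRD complex, which also holds histone deacetylases. INO80 and EP400 act on nucleosomes with the variant H2A.Z, and SMARCAD1 helps to restore silent chromatin behind replication forks.

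A promoter peak, meaning a peak with any base within 1 kb of an annotated TSS of the gene, was found for 7 of the 10 genes (70.0%, Wilson 95% confidence interval 39.7 to 89.2%). These were *Smarca4*, *Smarcc1*, *Smarcd1*, *Arid1a*, *Chd1*, *Ino80* and *Smarcad1*. *Smarcb1*, *Chd4* and *Ep400* had none. Among all protein-coding genes the share was 35.7%. All 10 genes had a CpG-rich start, where the observed/expected ratio of CpG exceeds 0.6 within 500 bp of the principal TSS, and among the 10426 genes with such a start the share was 60.1%, which lies inside the interval of the remodeler genes. Intervals cover counting error only.

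The sequences before the start of 5 genes are shown because they contrast the pair of genes whose peak was centred on the TSS with the 3 genes that had no promoter peak. Each is the 250 bases upstream of a RefSeq start on GRCm38.p6, the assembly behind mm10, and capitals mark matches to the searched motifs. The peak covered all 250 bases at *Smarca4* and *Ino80*.
Smarca4 (chr9:21615919-21616168, plus strand): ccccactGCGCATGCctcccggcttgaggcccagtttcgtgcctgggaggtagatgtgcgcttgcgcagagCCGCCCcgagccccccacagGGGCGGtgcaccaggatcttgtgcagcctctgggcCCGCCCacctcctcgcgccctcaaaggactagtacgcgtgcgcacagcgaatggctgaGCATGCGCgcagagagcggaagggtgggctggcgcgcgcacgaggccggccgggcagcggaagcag
Ino80 (chr2:119477688-119477937, minus strand): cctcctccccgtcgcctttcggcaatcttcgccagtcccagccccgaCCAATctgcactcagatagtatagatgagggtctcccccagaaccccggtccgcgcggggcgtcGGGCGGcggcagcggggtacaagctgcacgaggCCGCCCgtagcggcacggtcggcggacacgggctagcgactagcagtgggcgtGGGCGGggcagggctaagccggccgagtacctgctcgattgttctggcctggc
Smarcb1 (chr10:75921615-75921864, minus strand): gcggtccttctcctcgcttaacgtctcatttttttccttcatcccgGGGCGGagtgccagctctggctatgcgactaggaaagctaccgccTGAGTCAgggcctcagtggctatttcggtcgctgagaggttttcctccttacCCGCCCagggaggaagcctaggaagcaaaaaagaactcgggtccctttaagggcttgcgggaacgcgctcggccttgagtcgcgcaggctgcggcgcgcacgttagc
Chd4 (chr6:125095731-125095980, plus strand): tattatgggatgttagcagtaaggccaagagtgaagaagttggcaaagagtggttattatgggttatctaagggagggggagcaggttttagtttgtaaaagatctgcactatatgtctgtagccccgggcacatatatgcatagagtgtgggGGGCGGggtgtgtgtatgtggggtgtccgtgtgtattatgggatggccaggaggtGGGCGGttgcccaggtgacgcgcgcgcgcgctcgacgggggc
Ep400 (chr5:110770718-110770967, minus strand): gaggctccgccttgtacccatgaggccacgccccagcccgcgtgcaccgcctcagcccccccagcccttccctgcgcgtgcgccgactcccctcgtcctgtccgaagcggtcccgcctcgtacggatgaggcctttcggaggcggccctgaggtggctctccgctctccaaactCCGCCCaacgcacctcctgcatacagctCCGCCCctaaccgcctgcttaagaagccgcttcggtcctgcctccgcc

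In these 5 windows the capitals are GC boxes (GGGCGG on either strand) at every gene, the NRF1 motif GCGCATGC, once on each strand, at *Smarca4*, a CCAAT box at *Ino80* and the AP-1 motif TGACTCA, which reads TGAGTCA on the other strand, at *Smarcb1*. The windows held 12 CpG dinucleotides at *Chd4*, 21 at *Smarcb1*, 25 at *Smarca4* and at *Ep400*, and 28 at *Ino80*. Over the whole windows of the promoter table, which run from 250 bases before to 50 after the start, a GC box was present in 8 of the 9 remodeler genes listed there and in 35.7% of 32851 promoters. The NRF1 motif was present at *Smarca4*, *Smarcc1* and *Smarcb1*, against 2.71% of promoters. A CCAAT box (CCAAT) was found at *Chd4* and *Ino80*, against 37.4%. The ETS motif CCGGAAG was found at *Smarcc1* (8.86% of promoters), the YY1 motif AAGATGGC at *Smarcd1* (2.75%) and the AP-1 motif at *Smarcb1* (5.20%). No remodeler window held a TATA box (TATAAA, 13.6% of promoters), an E-box (CACGTG, 7.15%) or the octamer ATTTGCAT (1.74%). The GC box and the NRF1 motif each contain a CpG, and all 10 remodeler genes had a CpG-rich start, against 47.5% of all genes. The part of CpG content in these motif counts was not tested. Motifs were searched on both strands, and a match describes letters and not a bound site. *Chd1* had no entry in the table.

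**Figure D1:**
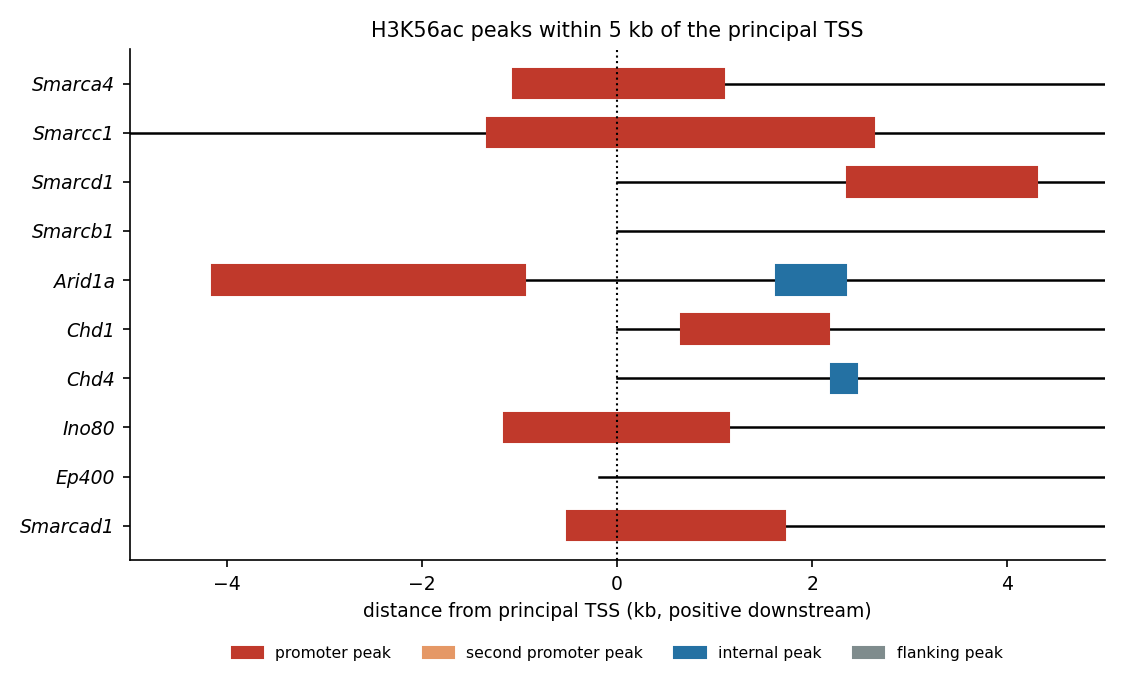
Peaks within 5 kb of the principal TSS of the 10 remodeler genes, with distance from that TSS in kb on the horizontal axis (positive downstream) and 1 gene per line. Black lines are gene bodies and coloured boxes are peaks. Peaks cover the TSS at 4 genes, begin downstream of it at *Smarcd1*, *Chd1* and *Chd4*, and are missing at *Smarcb1* and *Ep400*.

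The principal TSS, taken as the outermost start among transcripts tagged as principal isoforms, was covered by a peak at *Smarca4*, *Smarcc1*, *Ino80* and *Smarcad1*. That is 4 of 10 genes (40.0%, 16.8 to 68.7%), against 20% of all genes (4391 of 21938) and 35.3% of genes with a CpG-rich start. The remodelers fell into a group with a peak over the start, a group with a peak shifted to one side of it, and a group without a promoter peak.

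Among the motor subunits, *Smarca4* (ENSMUSG00000032187.16, chromosome 9, 21616169 to 21704230, plus strand) encodes the ATPase BRG1. Its promoter peak (21615100 to 21617269) was 2170 bp wide, reached 1069 bp upstream and 1100 bp downstream of the TSS, and had its midpoint in an exon. No other peak lay in the 88.1 kb of the gene.

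*Ino80* (ENSMUSG00000034154.15, chromosome 2, 119373042 to 119477687, minus strand) encodes the ATPase of the INO80 complex. Its peak (119476545 to 119478842) was 2298 bp wide and the most evenly placed, with 1142 bp downstream and 1155 bp upstream of the TSS and the midpoint 6.5 bp away from it. This was the sole peak in the 104.6-kb gene and its flanks, and peaks covered 1.59% of that window.

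*Smarcad1* (ENSMUSG00000029920.9, chromosome 6, 65042583 to 65116061, plus strand) encodes a single-subunit SNF2-type remodeler. Its 2239-bp promoter peak (65042097 to 65044335) leaned downstream, reaching 512 bp before and 1726 bp past the TSS, with the midpoint in an exon. It was among the genes with further peaks, described below.

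*Chd1* (ENSMUSG00000023852.14, chromosome 17, 15704967 to 15772610, plus strand) encodes a remodeler that binds methylated lysine 4 of histone H3. Its 1520-bp peak (15705618 to 15707137) left the principal TSS uncovered, beginning 651 bp and ending 2170 bp downstream, with the midpoint in intron 1. The CpG ratio around this start, 1.06, was the second highest of the 10 genes. No other peak lay in the gene or its flanks.

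*Chd4* (ENSMUSG00000063870.12, chromosome 6, 125095981 to 125130591, plus strand) encodes the NuRD motor. The nearest peak to its principal TSS lay 2196 bp downstream, in intron 2 (125098177 to 125098439), and at 263 bp stood at the 4.82th percentile of all peaks by width. It was 1608 bp from the closest annotated start, that of a coding transcript outside the basic annotation set. A 2010-bp peak 408 bp past the 3′ end of *Chd4* covered the start of the neighbour *Nop2*, a nucleolar RNA methyltransferase gene.

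*Ep400* (ENSMUSG00000029505.17, chromosome 5, 110664373 to 110770717, minus strand) encodes the ATPase of the TIP60-EP400 complex. No peak overlapped its 106.3 kb. The closest, 1538 bp wide, lay 9158 bp upstream of the principal TSS and covered the start of *Pus1*, a pseudouridine synthase gene. A 1604-bp peak 9964 bp past the 3′ end covered the start of *Ddx51*. Peaks thus marked the starts of neighbours on either side of *Ep400* and not its own.

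Among the other BAF subunits, *Smarcc1* (ENSMUSG00000032481.17, chromosome 9, 110117708 to 110240178, plus strand), a scaffold of the complex, had the widest promoter peak of the 10 genes. It spanned 3970 bp (110130641 to 110134610), from 1339 bp upstream to 2630 bp downstream of the principal TSS, and its midpoint was in intron 1. A second promoter peak of 2294 bp (110116247 to 110118540) lay over the start of a coding transcript outside the basic set, at -14272 bp from the principal TSS, and this peak also covered the start of the divergent gene *Dhx30*.

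*Arid1a* (ENSMUSG00000007880.16, chromosome 4, 133679008 to 133756769, minus strand) encodes the large DNA-binding subunit of BAF. Its 3210-bp promoter peak (133754553 to 133757762) covered the outermost annotated start, at 133756769, and ended 942 bp before the principal TSS at 133753611. The principal start itself lay in a gap between this peak and an intronic peak that began 1625 bp downstream. All 1927 windows of 75 bases within 1 kb of that TSS were unique in the assembled chromosomes.

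*Smarcd1* (ENSMUSG00000023018.5, chromosome 15, 99702129 to 99713991, plus strand) encodes a BAF subunit that contacts transcription factors. Its 1956-bp peak (99704482 to 99706437) lay inside the 11.9-kb gene, from 2353 to 4308 bp downstream of the principal TSS. It counted as a promoter peak solely because a transcript with a retained intron starts 997 bp from it. The peak also overlapped a start of *Gm17349*, a protein-coding gene on the other strand, so it cannot be assigned to 1 of the genes.

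*Smarcb1* (ENSMUSG00000000902.13, chromosome 10, 75896769 to 75921617, minus strand) encodes a core BAF subunit and tumour suppressor. No peak overlapped the gene, and the nearest lay 10926 bp upstream of its TSS. Yet peaks covered 13.8% of the gene with its flanks, the highest value of the 10 genes and at or above that of 98.0% of all genes, because 4 peaks lay in the flanks. On the upstream side, peaks of 802 and 2243 bp lay at the *Mmp11* and *Chchd10* starts, and a 2070-bp peak lay at *Gm867*. Downstream, a 3860-bp peak lay 13210 bp past the 3′ end.

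At *Smarcb1*, *Chd4* and *Ep400*, the genes without a promoter peak, all 1927 windows of 75 bases within 1 kb of the principal TSS occurred once in the assembled chromosomes (exact matches, both strands). At the 7 genes with a promoter peak the share of unique windows ranged from 97.4% at *Smarcd1* to 100%. The CpG ratio was 0.89, 0.74 and 1.03 at the 3 genes without a peak, within the range of 0.80 to 1.16 over the others except for *Chd4*, whose value was the lowest. Repeat-masked sequence made up 15.4, 4.90 and 21.3% of the surrounding 2 kb, against 11.0 to 25.2% at the others. The part of read depth in the missing peaks was not tested, since no depth per position was used.

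**Figure D2:**
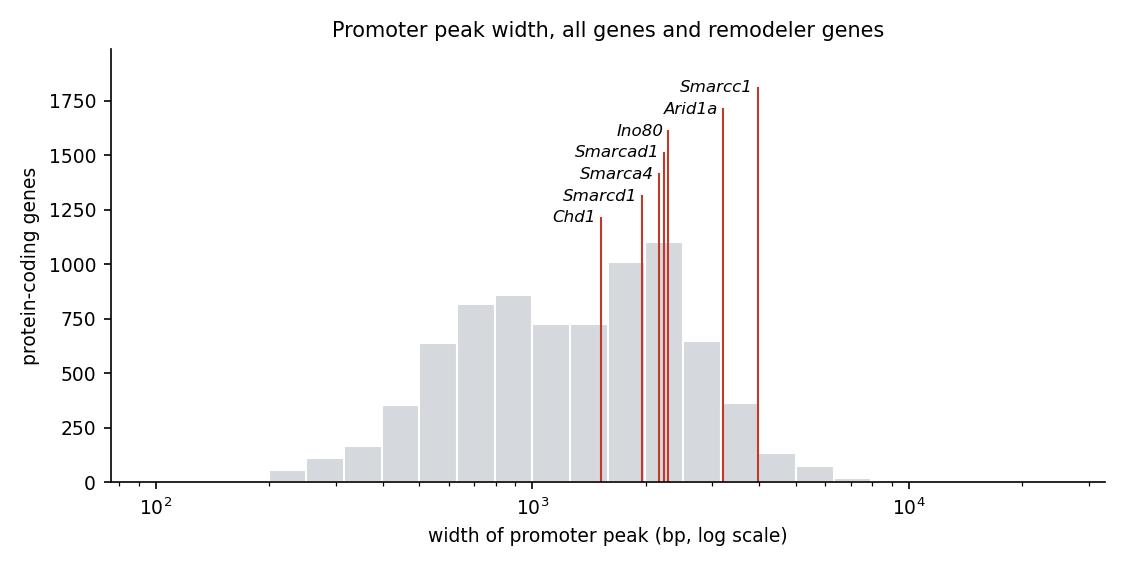
Width of the promoter peak in bp (log scale) for the 7836 protein-coding genes that had one, as grey bars counting genes, with red lines at the 7 remodeler genes, whose heights only separate the names. All 7 lines lie to the right of the median of 1336.5 bp, from *Chd1* at 1520 bp to *Smarcc1* at 3970 bp.

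The median promoter peak width over the 7 genes was 2239 bp, compared with 1336.5 bp over the 7836 genes with a promoter peak (quartiles 756 and 2164 bp) and 1447 bp over those with a CpG-rich start. All 7 were above the median of all genes. Among the 77 other genes of remodeling complexes, CHD proteins and SNF2 proteins with a promoter peak, counted below, the median was 1487 bp. Of these, 43 were above the median of all genes and 10 reached 3 kb. *Chd1* stood at the 55.1th percentile, *Smarcd1* at the 68.6th, *Smarca4* at the 75.3th, *Smarcad1* at the 77.3th and *Ino80* at the 78.7th, while *Arid1a* (92.6th) and *Smarcc1* (96.9th) were in the upper tail. A width of at least 3 kb was reached by *Arid1a* and *Smarcc1*, 2 of 7 genes (28.6%, 8.22 to 64.1%), against 9.28% of all genes with a promoter peak. When the midpoint of the peak had to lie within 1 kb of a TSS, 5 genes kept a promoter peak, against 33.9% of all genes, and those lost were *Smarcd1* and *Chd1*.

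Internal peaks, which overlap the gene body with no base within 1 kb of an annotated TSS of the gene, numbered 6 and fell in *Smarcc1*, *Arid1a*, *Chd4* and *Smarcad1* (4 of 10 genes, 40.0%, 16.8 to 68.7%). The share over all genes was 7.27%. Longer genes offer more room, and the share was 6.44% of genes of 10 to 50 kb, where *Chd4* was 1 of 3 remodelers, and 15.0% of genes of 50 to 150 kb, where 3 of 7 remodelers had an internal peak (42.9%, 15.8 to 75%). All 6 had their midpoint in an intron, and none was within 1 kb of a TSS of another protein-coding gene.

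The internal peaks were narrower than the promoter peaks, at 263 to 719 bp with a median of 475 bp. The median over 2060 internal peaks of all genes was 657.5 bp. In *Arid1a* both lay in intron 1, a 719-bp peak with its midpoint 1984 bp and a 482-bp peak 23609.5 bp downstream of the principal TSS. The *Smarcc1* peak of 555 bp (110209008 to 110209562) was in intron 24, 77305 bp downstream. In *Smarcad1* peaks of 468 and 425 bp lay in intron 5, 17557.5 and 19103 bp downstream, separated from each other by little more than the smallest gap in the set, 1000 bp. Annotated repeats made up 79.1 and 91.3% of these *Smarcad1* peaks and 2.70 to 16.0% of the other 4 internal peaks. Over all internal peaks the median was 11.0%, and 3.54% were over 75% repeat. The part of repeats in the *Smarcad1* peaks was not tested.

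Internal peak sequences are shown for 3 genes, the whole *Chd4* peak and the central 200 bases of an *Arid1a* and a *Smarcad1* peak, because they range from sequence with an E-box and several CpG dinucleotides to a repeat with none. They are written in the direction of the gene on GRCm38, with motif matches in capitals.
Chd4 (chr6:125098177-125098439, plus strand): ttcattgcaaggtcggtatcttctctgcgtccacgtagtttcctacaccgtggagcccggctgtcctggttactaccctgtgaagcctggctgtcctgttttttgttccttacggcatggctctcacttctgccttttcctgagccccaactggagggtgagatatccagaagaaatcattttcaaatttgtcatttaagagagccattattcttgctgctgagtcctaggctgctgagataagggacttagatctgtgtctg
Arid1a (chr4:133729901-133730100, minus strand): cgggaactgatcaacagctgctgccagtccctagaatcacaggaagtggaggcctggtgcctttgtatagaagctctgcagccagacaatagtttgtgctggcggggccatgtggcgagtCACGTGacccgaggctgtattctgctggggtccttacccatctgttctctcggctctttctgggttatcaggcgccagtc
Smarcad1 (chr6:65061612-65061811, plus strand): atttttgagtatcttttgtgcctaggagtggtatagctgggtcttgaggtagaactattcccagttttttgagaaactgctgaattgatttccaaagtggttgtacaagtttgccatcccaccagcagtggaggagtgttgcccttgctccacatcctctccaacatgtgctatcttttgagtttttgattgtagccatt

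The *Arid1a* stretch held an E-box (CACGTG), 7 CpG dinucleotides and 56.5% GC. The *Chd4* peak held no searched motif, 6 CpG dinucleotides and 48.3% GC. The *Smarcad1* stretch held no searched motif, no CpG dinucleotide and 42.5% GC.

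**Figure D3:**
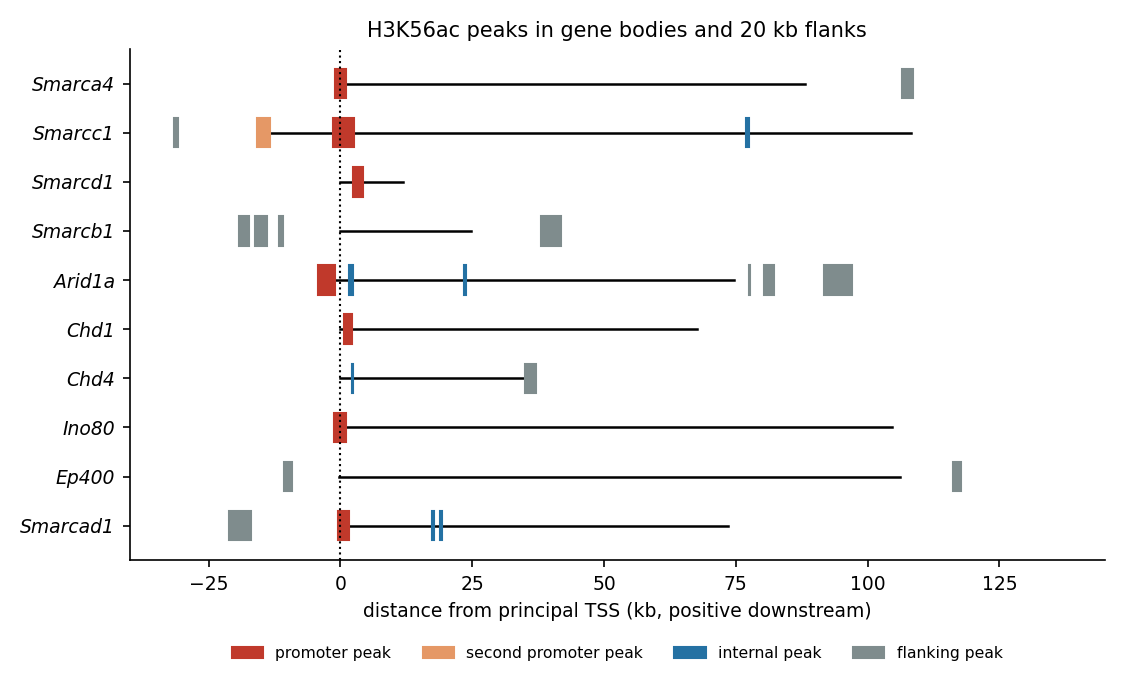
Peaks over the gene bodies and the 20 kb on either side, with distance from the principal TSS in kb (positive downstream). Black lines are gene bodies, and boxes are promoter, second promoter, internal and flanking peaks. *Smarcb1* has 4 flanking peaks and none in the gene, and *Ino80* has its promoter peak alone.

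Flanking peaks, within 20 kb of the body and not overlapping it, numbered 13 and lay beside 7 of the 10 genes (70.0%), against 34.6% of all genes. *Smarcd1*, *Chd1* and *Ino80* had none. Of the 13, 9 had a base within 1 kb of the TSS of another protein-coding gene, such as *Dhx30*, *Pigv*, *Nop2*, *Ddx51* and *Pus1*. The other 4 were away from every protein-coding TSS.

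Of these 4, 3 were at least 3 kb wide. The *Arid1a* flank held a 5402-bp peak (chromosome 4, 133656488 to 133661889), 17118 bp past the 3′ end and 6334 bp from the nearest TSS, that of *Zdhhc18*. It was at or above 99.1% of all peaks in width. The *Smarcad1* flank held a 4209-bp peak (chromosome 6, 65021451 to 65025659), 16923 bp upstream, with *Smarcad1* itself as the nearest gene. The *Smarcb1* flank held the 3860-bp peak already given (chromosome 10, 75879699 to 75883558), 9855 bp from the nearest TSS, that of *Derl3*. All 3 had their midpoint outside every protein-coding gene body and low CpG ratios of 0.18 to 0.34. Such a peak in the gene body or flanks was found for 3 of 10 remodelers (30.0%, 10.8 to 60.3%), against 0.789% of all genes and 0.938% of genes of 10 to 150 kb. In the whole set 168 of 3795 peaks away from every protein-coding TSS (4.43%) were this wide. Which gene, if any, such a peak acts on was not measured.

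Over the gene with both flanks, peaks covered 1.41% (*Chd1*) to 13.8% (*Smarcb1*) of the bases, with a median of 3.41%. All 10 values were above the median of all genes, 0.351%, while the median over genes with a promoter peak was 3.29%. Shares with internal, flanking or wide distal peaks were not computed for genes with a CpG-rich start or a promoter peak. The part of these traits in the shares above was not tested.

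**Figure D4:**
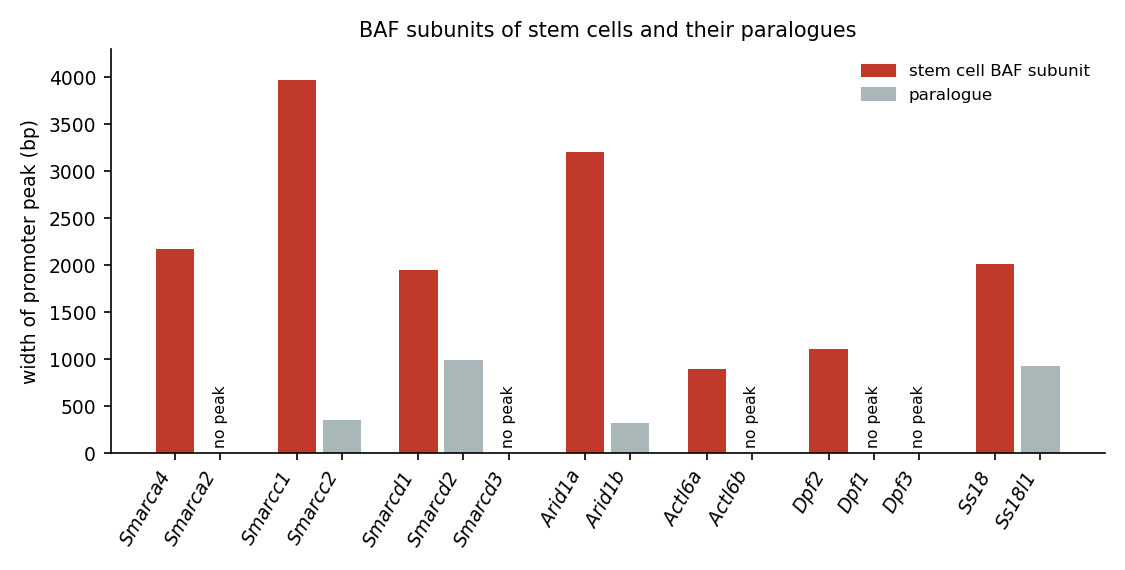
Width in bp of the promoter peak for 7 BAF subunits of stem cells (red) and their paralogues (grey), with families side by side. The red bar is higher in the 4 families with a grey bar, and 5 paralogues have no promoter peak. The stem cell subunits *Smarcb1* and *Phf10*, which have no promoter peak, are not shown.

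The composition of BAF changes between cell types by exchange of paralogous subunits, so the stem cell subunits were set beside their paralogues, by textbook assignment. A promoter peak was found for 8 of 10 stem cell subunits (80.0%, 49.0 to 94.3%) and 4 of 9 paralogues (44.4%, 18.9 to 73.3%). The difference was 35.6 percentage points, with an interval from -6.81 to 64.9 that includes 0. It was 36.7 points under the midpoint rule and 25.6 points with basic coding transcripts alone. All of these subunits and paralogues had a CpG-rich start. The stem cell subunits without a promoter peak were *Smarcb1* and *Phf10*. Neither was placed in a family with a paralogue, so every stem cell subunit in the families below had a promoter peak. *Phf10* was not set beside *Dpf1*, *Dpf2* and *Dpf3*, and like *Dpf1* and *Dpf3* it had no promoter peak. The median width was 2092 bp for the 8 stem cell subunits with a peak and 644.5 bp for the 4 paralogues with a peak.

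A paralogue had a promoter peak in 4 of the 7 families (*Smarcc1*, *Smarcd1*, *Arid1a* and *Ss18*), and in these the peak of the stem cell subunit was the wider. In the other 3 no paralogue had one, so widths could not be compared. *Smarca4* had a peak of 2170 bp, and *Smarca2*, the ATPase BRM, had none, with the nearest peak 1117550 bp from its starts. *Smarcc1* had 3970 bp and *Smarcc2* 358 bp. *Arid1a* had 3210 bp and *Arid1b* 327 bp. *Smarcd1* had 1956 bp, *Smarcd2* 992 bp and *Smarcd3* none. *Ss18* had 2014 bp and *Ss18l1* 931 bp, at a peak shared with *Psma7*. *Actl6a* had 892 bp and *Dpf2* 1113 bp, while their neuronal or muscle counterparts *Actl6b*, *Dpf1* and *Dpf3* had none. A peak lay over the principal TSS of 3 stem cell subunits of these families, *Smarca4*, *Smarcc1* and *Ss18*, and of no paralogue. The *Smarcd1* value rests on the peak that cannot be assigned to that gene, and under the midpoint rule or with basic coding transcripts alone *Smarcd1* had no promoter peak.

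**Figure D5:**
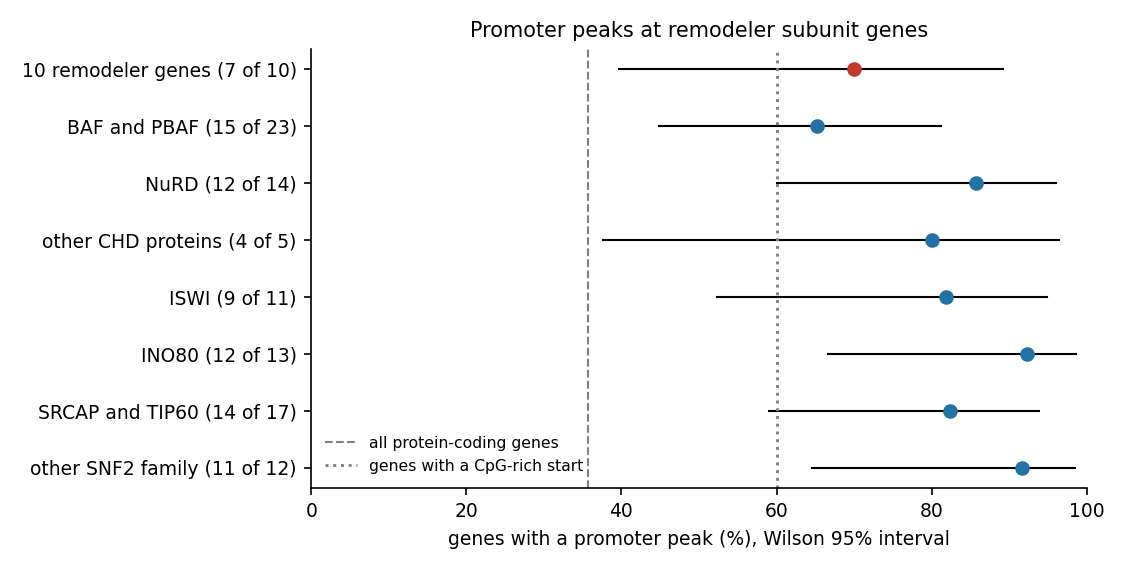
Percent of genes with a promoter peak for the 10 remodeler genes (red) and for the other genes of each complex or family (blue). Lines are Wilson 95% intervals. The dashed line is the share of all protein-coding genes, 35.7%, and the dotted line that of genes with a CpG-rich start, 60.1%. The 10 genes and the BAF and PBAF list lie nearest the dotted line.

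Other subunits of remodeling complexes, and other CHD and SNF2 family genes, were counted from lists that leave out the 10 genes. All are called subunits here. A promoter peak was found for 77 of 95 (81.1%, 72.0 to 87.7%), and 85 of the 95 had a CpG-rich start. By complex the counts were 15 of 23 for BAF and PBAF (65.2%), 12 of 14 for NuRD (85.7%), 4 of 5 other CHD proteins (80.0%), 9 of 11 for ISWI (81.8%), 12 of 13 for INO80 (92.3%), 14 of 17 for SRCAP and TIP60 (82.4%) and 11 of 12 other SNF2 family genes (91.7%). For the complexes of the 3 remodelers without a promoter peak, the intervals were 44.9 to 81.2% for BAF and PBAF (*Smarcb1*), 60.1 to 96.0% for NuRD (*Chd4*) and 59.0 to 93.8% for SRCAP and TIP60 counted together (*Ep400*), each of which reaches the 60.1% of genes with a CpG-rich start. Those for other CHD proteins (37.6 to 96.4%) and ISWI (52.3 to 94.9%) also included that share. The intervals for INO80 (66.7 to 98.6%), other SNF2 family genes (64.6 to 98.5%) and all 95 subunits lay above it. Among the 85 subunits with a CpG-rich start, 81.2% had a promoter peak.

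The 18 subunits without a promoter peak were *Smarca2*, *Smarcd3*, *Dpf1*, *Dpf3*, *Phf10*, *Actl6b*, *Bcl7a* and *Bcl7c* of BAF, the motors *Chd3* and *Chd5* of NuRD, *Smarca1* and *Baz1a* of the ISWI group, *Actr5* of INO80, *Mrgbp*, *Vps72* and *Znhit1* of the SRCAP and TIP60 complexes, and the motor genes *Chd7* and *Ercc6*. All but *Smarca1* and *Mrgbp* had a CpG-rich start. *Chd4* shared the lack of a promoter peak with its NuRD paralogues *Chd3* and *Chd5*, under the limit of 1 kb. The nearest peak lay 1029 bp from a start of *Chd3*, 1608 bp from one of *Chd4* and 10450 bp from one of *Chd5*. The widest promoter peaks were 6496 bp at *Chd2*, 4380 bp at *Morf4l1*, 3827 bp at *Ino80d*, 3353 bp at *Mbtd1*, shared with *Utp18*, and 3343 bp at *Bicral*. *Chd2* is a close relative of *Chd1*, whose own peak spanned 1520 bp.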

How the data were processed

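H3K56ac was measured by ChIP-seq in 4 libraries, 2 Scramble and 2 Sirt6KD, with 1 input library each, grouped by the sample titles. The authors trimmed reads, aligned them to mm10 with bowtie keeping reads with a single reportable location, removed duplicates, ran MACS2 to call peaks, took out those in blacklisted regions, and merged peaks that overlapped. The deposited table holds start and end positions, and its score column has 1 value throughout. Merging hides the library behind a peak. The study reported more H3K56ac peaks after *Sirt6* knockdown, so the merged list can hold peaks of Sirt6KD cells alone. No gap between peaks was under 1000 bp, so a wide peak cannot be told apart from nearby peaks that were joined. The table gives no depth.

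Positions are printed counted from 1. Genes, TSS and exons came from GENCODE M21 on GRCm38, and 0 peaks passed a chromosome end. Every transcript start of a gene counted as a TSS, and of several promoter peaks the one nearest to a TSS was taken, or the widest of equally near ones. The edge of a peak, not its midpoint, set the distance to a TSS, since wide peaks can have remote midpoints. Promoter sequences came from RefSeq (GRCm38.p6), where 9 of 10 genes matched. Uniqueness was counted for exact windows of 75 bases. The 10 genes, the subunit lists and all rules were chosen with earlier results of these data known. Genes named beyond the 10 were some pluripotency genes, the stem cell BAF subunits of the compared families and the BAF paralogues. Also named were all subunits without a promoter peak, the 5 with the widest peak, and neighbours at a described peak. The neighbour at 1 flanking peak is not reported here. The subunit lists were named for BAF, NuRD, CHD, ISWI, INO80, SRCAP and TIP60, and other SNF2 proteins. All comparisons are descriptions, with Wilson 95% intervals and, for a difference of shares, Newcombe's interval, and where 0 genes were found, the limit was set at 3. Alternatives changed the promoter rule, TSS set, peak width, flank and motif window. Python 3.11.15, numpy 2.4.6, scipy 1.17.1, pysam 0.24.0 and matplotlib 3.10.9 were used. In tests on simulated data, 200 of 200 planted promoter peaks, 200 of 200 internal peaks and 200 of 200 motifs were recovered.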

Additional observations from a re-analysis of the deposited data

How the results depend on the processing

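Of 28 alternatives on 8 results, 23 gave a value within 1.5 times that of the report, and 5 did not. The number of internal peaks fell from 6 to 3 when no base could lie within 3 kb of a TSS of the gene, and to 2 among peaks of at least 500 bp. Flanking peaks numbered 5 within 10 kb and 26 within 50 kb, against 13. The median share of bases in peaks was 1.75% over gene bodies alone, against 3.41%. These shifts follow from the smaller or larger region or peak set. Genes with a promoter peak ranged from 5 (midpoint within 1 kb, or any base within 500 bp) to 8 (any base within 3 kb, which added *Chd4*), and *Smarcb1* and *Ep400* had none under any rule tried. Among all protein-coding genes the shares under these rules were 33.9%, 34.1% and 37.4%, in the same order. Since the score column is constant, no stricter score was applied. No paired analysis was possible because libraries have no values of their own in a merged list, and for the same reason no replicate was left out. Depth was not used, so it cannot be said which starts lacked a peak for want of reads.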
